A study of Danio rerio with 6 samples.

Results

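RNA polymerases, general initiation factors and the Mediator complex make up the core machinery that transcribes nuclear genes. The genes described here are those of a zebrafish RNA-seq table whose symbol names a subunit of RNA polymerase I, II or III (*polr1*, *polr2*, *polr3*), a TFII or TFIII factor (*gtf2*, *gtf3*), a TBP-associated factor (*taf* and a number) or a Mediator subunit (*med* and a number). This rule on symbols found 95 of 21769 genes and used no expression value. They comprised 5 polymerase I, 13 polymerase II, 10 polymerase III, 15 TFII, 6 TFIII, 18 TAF and 28 Mediator genes. All 95 had a mean of at least 1 normalized CPM over the 6 libraries, so no member was lost to a filter on low values.

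The study set 3 libraries of *dhx38* mutant zebrafish embryos (genotype dhx38-- or dhx38-/-) against 3 of their wild-type siblings, all AB fish aged 36 hpf, or hours after fertilization. *dhx38* codes for a DEAH-box helicase that acts during pre-mRNA splicing. Tissue is labelled as tail, or as trunk where the extraction is described, and the labels give neither the allele nor the number of embryos in a sample. They also do not say whether samples of a group came from different clutches, and the spread behind each p-value may then be technical. Per-library values below are given in the order of replicates 1, 2 and 3.

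Polymerase I makes the precursor of the large ribosomal RNAs, polymerase II makes messenger RNAs and most spliceosomal snRNAs, and polymerase III makes tRNAs, 5S rRNA and U6 snRNA. The general factors TFIIA, TFIIB, TFIID, TFIIE, TFIIF and TFIIH place polymerase II at promoters and open the DNA, and Mediator links polymerase II to enhancer-bound activators. These complexes work in every cell type, and several small subunits are shared by all 3 polymerases.

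The targeted gene, *dhx38*, was listed at 57.2, 90.4 and 53.1 normalized CPM in the mutant libraries, against 33.8, 33.8 and 27.3 in the sibling libraries. All mutant values lay above all sibling values. The log2 fold change was 1.03 (SE 0.22), which did not pass without the replicate block (limma adjusted p = 0.0630) and passed with it (limma adjusted p = 0.00664, or 0.0789 with the block and a pseudocount of 0.1). The mutant label was thus not checked by a loss of the transcript. Here a gene passed at a Benjamini-Hochberg adjusted p under 0.05 over all 21769 genes, with log2(normalized CPM + 1) as the measure. The replicate block compares libraries of the same replicate number, which deviated together in both groups, though the labels state no pairing. A fold change on this scale is the same in both fits, and understates the change of low genes. Every SE given is that of the fit without the block, also where the adjusted p is that of the blocked fit.

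Of 95 members 3 rose in the mutants and 0 fell by limma with adjustment. Without adjustment 17 were higher and 18 lower at p under 0.05, where 10.2% and 10.7% of all genes were, or 20.9% together. The 3 were *gtf2e1*, *polr2eb* and *taf10*, and they make up 3.16% of the members, against 1.70% of all genes tested. For rises alone the share over all genes was 1.41%, and for falls 0.285%. In the blocked fit 15 members rose and 9 fell, or 15.8% and 9.47%, against 6.85% and 6.87% of all genes and 13.7% in either direction. With the block and a pseudocount of 0.1 in place of 1, 0 of the 95 passed (limma; the lowest adjusted p was 0.0544 for *gtf2e1*). In that fit 0.776% of all genes passed, 0.717% as rises and 0.0597% as falls, so a count of 0 in 95 is near the share of all genes. Every rise or fall of a member named below with the block is lost at that pseudocount.

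The 3 mutant libraries all lay above the 3 sibling libraries for 23 members (24.2%, against 13.3% of all genes) and all below for 29 (30.5%, against 13.8%). Among the 18506 genes with a mean of at least 1, as all members have, these shares were 13.6% and 15.1%. Of those genes 7.29% rose and 7.84% fell with the block. Their median level was 12.3 normalized CPM, below the 26.7 of the members, and shares at a matched level were not computed. The groups overlapped for 43 members. The median log2 fold change over the members was -0.026, beside -0.0067 over all genes, with an interquartile range of 0.54 beside 0.43. Of the 95 fold changes 44 were positive and 51 negative, beside 10706 and 11063 of all 21769 genes. A lower value in such bulk tissue can reflect fewer cells of a type or less RNA per cell, which cannot be told apart.

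**Figure D1:**
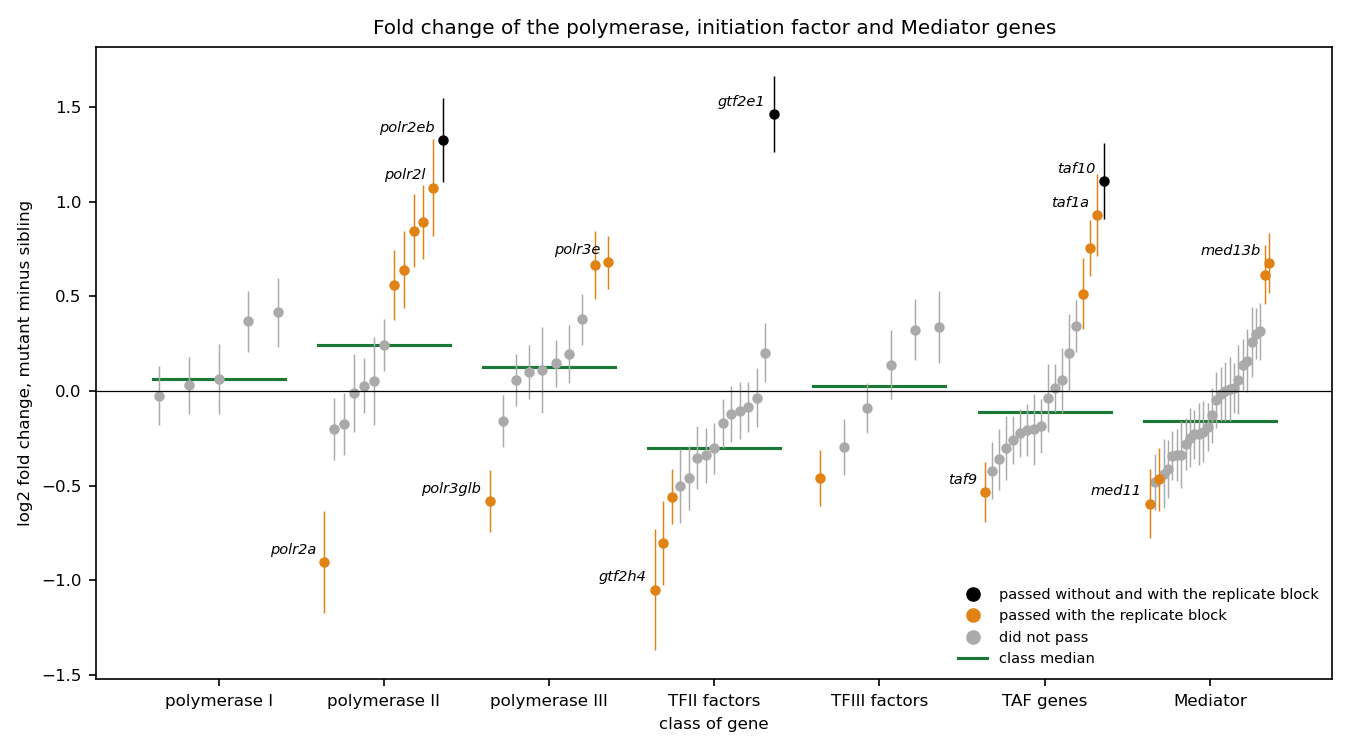
Log2 fold change (mutant minus sibling, y axis) of each of the 95 members, grouped by class along the x axis and ordered within it. Points are fitted values and bars 1 SE. Black points passed without and with the replicate block, orange points with it and grey points in neither fit, and green lines are class medians. *gtf2e1* at 1.46, *polr2eb* at 1.33 and *taf10* at 1.11 are the black points, and the TFII median of -0.30 is the lowest of the 7 classes.

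Polymerase II genes held the widest range of fold changes among the 3 polymerases. Of 13 genes 1 rose without the block (7.69%, against 1.41% of all genes). With it 6 rose and 1 fell, or 46.2% and 7.69%, against 6.85% and 6.87% of all genes. The class median was 0.24. *polr2eb* (ENSDARG00000026183, chromosome 22) encodes RPB5, a subunit common to all 3 polymerases. It was listed at 81.8, 149.6 and 129.6 normalized CPM in the mutant libraries, against 46.6, 46.1 and 45.1 in the sibling libraries. The sibling values were nearly equal and lay under every mutant value. The means were 120.3 ± 34.8 normalized CPM in mutants and 45.9 ± 0.771 in siblings (SD, n = 3 each). Its log2 fold change was 1.33 (SE 0.22, limma adjusted p = 0.0328).

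Other shared subunits differed in their calls. *polr2l* (RPB10) was at 31.4, 62.2 and 59.99 normalized CPM in the mutant libraries, against 24.3, 23.6 and 20.4 in the sibling libraries. Mutant replicate 1 was the nearest to the siblings, and the groups did not overlap. *polr2l* rose with the block (log2 fold change 1.07, SE 0.26; limma adjusted p = 0.0784 without it and 0.0167 with it). *polr2k* (RPB12) was at 8.49, 15.2 and 12.6 normalized CPM in the mutant libraries, against 6.76, 7.38 and 7.53 in the sibling libraries, and it also rose with the block (0.64, limma adjusted p = 0.0304). *polr2f* (RPB6) was at 40.8, 52.02 and 48.5 normalized CPM in the mutant libraries, against 45.4, 48.2 and 44.4 in the sibling libraries. *polr2h* (RPB8) was at 18.1, 23.1 and 35.2 normalized CPM in the mutant libraries, against 20.8, 25.1 and 25.3 in the sibling libraries. The groups overlapped for both, and their log2 fold changes of 0.028 (SE 0.14) and 0.053 (SE 0.23) did not pass in either fit.

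The largest subunits of polymerase II had fold changes of opposite sign. *polr2a*, which encodes the catalytic subunit RPB1 with its carboxy-terminal repeat domain, was at 140.1, 75.9 and 99.4 normalized CPM in the mutant libraries, against 182, 149 and 259 in the sibling libraries. Both groups spread widely, and the highest mutant value lay just under the lowest sibling value. *polr2a* fell with the block (log2 fold change -0.90, SE 0.27; limma adjusted p = 0.121 without it and 0.0188 with it). *polr2b*, which encodes RPB2, which completes the active centre, was at 297, 454 and 334 normalized CPM in the mutant libraries, against 214, 209.8 and 172 in the sibling libraries. It rose with the block (0.85, SE 0.19; limma adjusted p = 0.0705 without it and 0.0127 with it). Within each library the ratio of *polr2b* to *polr2a* was 2.12, 5.99 and 3.36 in the mutant libraries, against 1.17, 1.41 and 0.663 in the sibling libraries. This ratio does not depend on how the libraries were scaled. Its groups did not overlap, which follows from the values of both genes just given. The pair was chosen after those values were seen.

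The stalk of polymerase II is made of RPB4 and RPB7. *polr2d* (RPB4) was at 56.2, 94 and 79.3 normalized CPM in the mutant libraries, against 39.4, 41.1 and 39.2 in the sibling libraries, and rose with the block (0.89, SE 0.20; limma adjusted p = 0.0681 without it and 0.0114 with it). *polr2gl*, an RPB7-like gene, was at 62.4, 89.8 and 97.04 normalized CPM in the mutant libraries, against 55.7, 55.8 and 53.8 in the sibling libraries. It rose by less, at 0.56 with a limma adjusted p of 0.0490 with the block, near the threshold. Mutant replicate 1 was again the nearest to the siblings for both stalk genes.

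The remaining polymerase II genes passed in neither fit. *polr2c* and *polr2j*, the RPB3 and RPB11 assembly platform, had log2 fold changes of -0.012 (SE 0.21) and -0.17 (SE 0.16). *polr2i* (RPB9) was at -0.20 (SE 0.16). *polr2m*, which encodes the Gdown1 protein that binds polymerase II and is not a core subunit, was at 12.8, 11.9 and 14.4 normalized CPM in the mutant libraries, against 10.7, 10.4 and 11.5 in the sibling libraries. Its groups did not overlap, but the log2 fold change of 0.24 did not pass (limma adjusted p = 0.352, and 0.225 with the block).

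**Figure D2:**
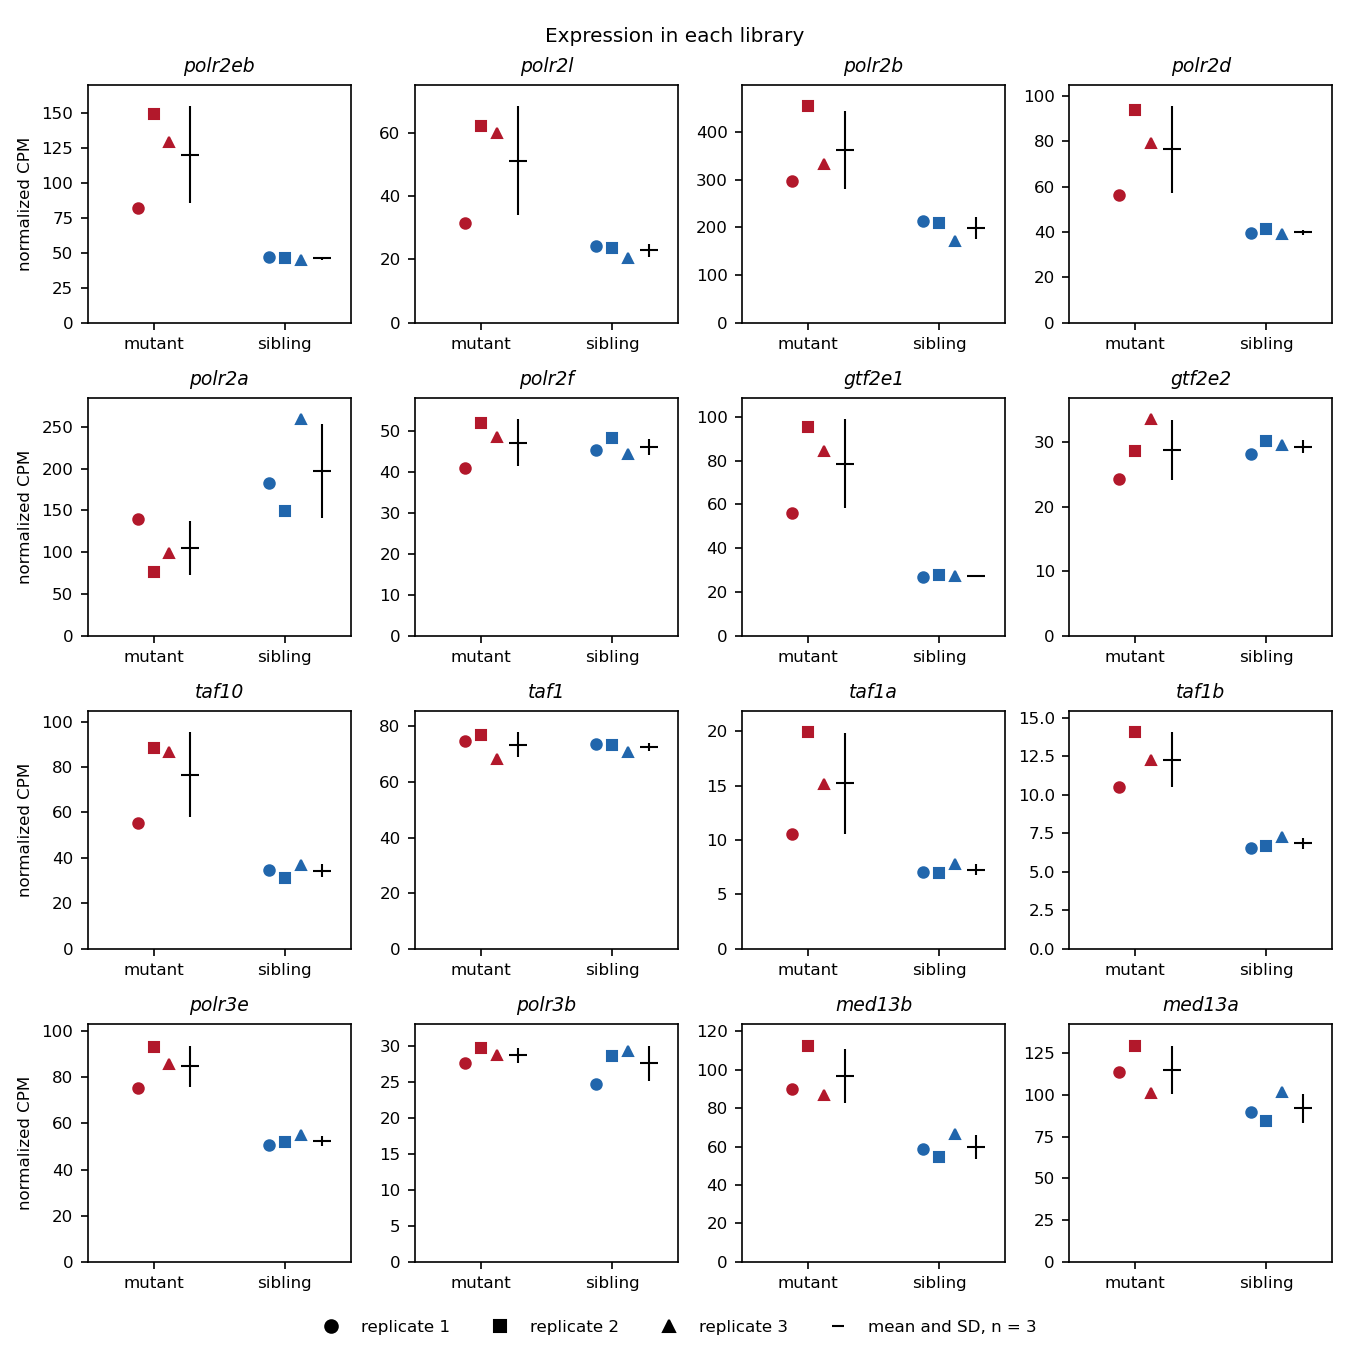
Normalized CPM (y axis, from 0) of 16 genes in each library, with mutants left of siblings. Symbols mark the replicate number, and the dash with its bar is the mean with the SD of 3 libraries. For *polr2eb*, *gtf2e1* and *taf10* all mutant points lie above all sibling points with replicate 1 the lowest of the mutants, while *polr2f*, *gtf2e2* and *taf1* overlap.

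The *polr1* genes passed in neither fit. Polymerase I genes with other symbols are among the related genes below. By limma 0 of 5 genes passed, blocked or not, where 13.7% and 1.70% of all genes passed. None had an unadjusted p under 0.05, against 20.9% of all genes. *polr1a* and *polr1b* encode the catalytic subunits. *polr1a* was at 40.8, 49.5 and 52.95 normalized CPM in the mutant libraries, against 31.7, 39.5 and 39.04 in the sibling libraries, and *polr1b* at 20.4, 28.7 and 25.9 normalized CPM in the mutant libraries, against 15.1, 20.1 and 20.2 in the sibling libraries. The groups did not overlap for either, but the highest sibling value came close to the lowest mutant value for both. The log2 fold changes were 0.37 (SE 0.16, limma adjusted p = 0.0858 with the block) and 0.42 (SE 0.18, 0.0614 with the block). *polr1c* and *polr1d* encode subunits that polymerases I and III share. *polr1c* was at 11.2, 11.5 and 15.4 normalized CPM in the mutant libraries, against 12.9, 12.7 and 12.8 in the sibling libraries. Its groups overlapped, and its log2 fold change of -0.026 (SE 0.16) did not pass (limma adjusted p = 0.947). *polr1d* was at 0.028 (SE 0.15). *polr1e*, a subunit of the initiation heterodimer, was at 0.061 (SE 0.18).

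Among 10 polymerase III genes, 2 rose and 1 fell in the blocked fit, where 6.85% and 6.87% of all genes did. Without the block limma called 0 of the 10, against 1.70% of all genes. Before adjustment 3 were higher and 1 lower (p under 0.05), where 10.2% and 10.7% of all genes were. *polr3e* (RPC5) was at 75.2, 93.1 and 85.9 normalized CPM in the mutant libraries, against 50.5, 51.9 and 54.8 in the sibling libraries. The mutant values all exceeded the siblings, and *polr3e* just missed the threshold without the block (log2 fold change 0.68, SE 0.14; limma adjusted p = 0.0578, and 0.0154 with it). *polr3f* (RPC6), of the heterotrimer that helps open the promoter, was at 12.9, 18.9 and 19.3 normalized CPM in the mutant libraries, against 9.59, 9.97 and 11.1 in the sibling libraries. It rose with the block (0.67, SE 0.18, limma adjusted p = 0.0207).

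The fall in this class was that of *polr3glb*, a paralogue of the third heterotrimer subunit, RPC7-like. It was listed at 17.5, 16.5 and 23 normalized CPM in the mutant libraries, against 27.3, 27.04 and 31.8 in the sibling libraries. All mutant values were below all sibling values (log2 fold change -0.58, SE 0.17; limma adjusted p = 0.110 without the block and 0.0237 with it). Its copy *polr3gla* was at 4.23, 4.58 and 6.01 normalized CPM in the mutant libraries, against 4.06, 3.3 and 6.49 in the sibling libraries, and overlapped. The ratio of *polr3glb* to *polr3gla* was 4.13, 3.61 and 3.83 in the mutant libraries, against 6.72, 8.19 and 4.903 in the sibling libraries. *polr3a* and *polr3b* encode the catalytic subunits. *polr3a* was at 19.6, 16.6 and 16.3 normalized CPM in the mutant libraries, against 18.6, 19.9 and 20.4 in the sibling libraries (-0.16, SE 0.14, limma adjusted p = 0.560). *polr3b* was at 27.6, 29.8 and 28.8 normalized CPM in the mutant libraries, against 24.8, 28.7 and 29.4 in the sibling libraries (0.058, SE 0.14, limma adjusted p = 0.850). The groups overlapped for both, and they passed in neither fit, nor did *polr3c* (0.20), *polr3d* (0.15) and *polr3k* (0.099).

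Among 15 TFII genes the single rise was that of *gtf2e1*, or 6.67%, against 1.41% of all genes without the block and 6.85% with it. In the blocked fit 3 others fell, where 6.87% of all genes did. By limma without the block 0 fell, against 0.285% of all genes. Before adjustment 1 was higher and 6 lower (p under 0.05), where 10.2% and 10.7% of all genes were. Of the 15 fold changes 13 were negative, beside 11063 of all 21769 genes, and the class median was -0.30, beside -0.0067. The groups did not overlap for 1 higher and 9 lower genes, where 13.3% and 13.8% of all genes were so separated. *gtf2e1* (ENSDARG00000000542, chromosome 9) encodes the large subunit of TFIIE, which brings TFIIH to the promoter. It was at 56.1, 95.3 and 84.6 normalized CPM in the mutant libraries, against 26.7, 27.8 and 27.1 in the sibling libraries. All mutant values lay above all sibling values, which were nearly equal. The means were 78.7 ± 20.3 normalized CPM in mutants and 27.2 ± 0.551 in siblings (SD, n = 3 each). The log2 fold change of 1.46 (SE 0.20, limma adjusted p = 0.0206) was the highest of the 95.

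The gene of the small TFIIE subunit, *gtf2e2*, was at 24.3, 28.6 and 33.6 normalized CPM in the mutant libraries, against 28.3, 30.3 and 29.5 in the sibling libraries. Its groups overlapped and its log2 fold change was -0.037 (SE 0.15). The ratio of *gtf2e1* to *gtf2e2* was 2.31, 3.33 and 2.52 in the mutant libraries, against 0.946, 0.9197 and 0.919 in the sibling libraries. *gtf2e1* was also the only member in the authors' shorter table of 956 genes, whose criterion is not given in the sources used here.

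TFIIA steadies TBP on the promoter. *gtf2a1*, its large precursor subunit, was at 57.7, 46.5 and 48.6 normalized CPM in the mutant libraries, against 78.7, 77.05 and 70.03 in the sibling libraries, and fell with the block (-0.56, SE 0.14; limma adjusted p = 0.0901 without it and 0.0277 with it). A pair of gene IDs carried the symbol *gtf2a1l*. ENSDARG00000104596 was at 23.4, 13.9 and 12.7 normalized CPM in the mutant libraries, against 29.02, 31.1 and 26.7 in the sibling libraries, and fell with the block (-0.80, limma adjusted p = 0.0217). The Ensembl name table gives that ID the symbol STON1, so its identity as a TFIIA gene is uncertain. ENSDARG00000063670, which the table also names GTF2A1L, was at 3.06, 2.64 and 2.4 normalized CPM in the mutant libraries, against 3.48, 3 and 2.6 in the sibling libraries and did not pass (-0.12, SE 0.15). *gtf2a2*, the small TFIIA subunit, was at -0.085 (SE 0.13).

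*gtf2b*, the single subunit of TFIIB that positions polymerase II, was at 35.4, 32.03 and 32.5 normalized CPM in the mutant libraries, against 45.5, 45.2 and 37.1 in the sibling libraries. The groups did not overlap, and the fold change of -0.34 (SE 0.14) did not pass (limma adjusted p = 0.225, and 0.116 with the block). The TFIIF genes *gtf2f1* (-0.10, SE 0.15) and *gtf2f2a* (-0.30, SE 0.13) passed in neither fit. *gtf2ird1*, of the TFII-I family and not a general factor, was at -0.46 (SE 0.17) and did not pass either.

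TFIIH opens promoter DNA and also acts in nucleotide excision repair. *gtf2h4* was at 5.81, 1.81 and 2.29 normalized CPM in the mutant libraries, against 6.22, 6.59 and 9.19 in the sibling libraries. Its log2 fold change of -1.05 was the lowest of the 95, with an SE of 0.32. The first mutant library lay near the siblings and the other two well under them, and *gtf2h4* fell with the block (limma adjusted p = 0.126 without it and 0.0327 with it). The Ensembl name table gives this ID the symbol SH3BP5L, so its identity is also uncertain. *gtf2h3* (-0.50), *gtf2h5* (-0.35) and *gtf2h2* (-0.17) passed in neither fit, and for *gtf2h3* the limma adjusted p with the block was 0.0511. *gtf2h1* was at 0.20 (SE 0.16).

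TFIIIA binds 5S rRNA genes and TFIIIC binds the internal promoters of tRNA genes. By limma without the block 0 of the 6 TFIII genes passed, against 1.70% of all genes. Before adjustment 0 were higher and 1 lower (p under 0.05), where 10.2% and 10.7% of all genes were. In the blocked fit 1 fell, *gtf3c4*, or 16.7%, against 6.87% of all genes. *gtf3c4* was at 9.11, 7.63 and 7.16 normalized CPM in the mutant libraries, against 12.1, 11.5 and 10.3 in the sibling libraries (log2 fold change -0.46, SE 0.15, limma adjusted p = 0.0461 with the block). *gtf3aa* was at 10.1, 13.9 and 11.6 normalized CPM in the mutant libraries, against 8.18, 9.51 and 10.1 in the sibling libraries, and did not pass (0.32, limma adjusted p = 0.135 with the block). *gtf3c3* was at 19.8, 15.6 and 15.9 normalized CPM in the mutant libraries, against 22.5, 20.8 and 20.2 in the sibling libraries. Its groups did not overlap, and its log2 fold change of -0.30 (SE 0.15) did not pass (limma adjusted p = 0.292, and 0.154 with the block). *gtf3c6* was at 4.93, 7.37 and 7.38 normalized CPM in the mutant libraries, against 4, 5.19 and 5.66 in the sibling libraries. Its groups overlapped, and its log2 fold change of 0.34 (SE 0.19) did not pass either (limma adjusted p = 0.354, and 0.110 with the block). *gtf3c2* (0.14) and *gtf3c5* (-0.091) passed in neither fit.

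TAF genes belong to several complexes. Of 18 genes 1 rose and 0 fell by limma without the block, against 1.41% and 0.285% of all genes. Before adjustment 5 were higher and 2 lower (p under 0.05), where 10.2% and 10.7% of all genes were. In the blocked fit 4 rose and 1 fell, or 22.2% and 5.56%, against 6.85% and 6.87% of all genes. Among the 13 genes of TFIID, the factor that carries TBP to promoters, the median was -0.20. With the block 1 rose and 1 fell, or 7.69% each, against 6.85% and 6.87% of all genes. *taf10* (ENSDARG00000068641, chromosome 8), a histone-fold subunit of both TFIID and the SAGA coactivator, was at 55.2, 88.3 and 86.4 normalized CPM in the mutant libraries, against 34.7, 31.2 and 36.96 in the sibling libraries. The groups did not overlap, and the log2 fold change was 1.11 (SE 0.20, limma adjusted p = 0.0414). TAF8 and TAF3 are histone-fold partners of TAF10 in TFIID. *taf8* was at 0.056 (SE 0.17) and *taf3* at -0.30 (SE 0.17), and neither passed.

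The ratio of *taf10* to *taf8* was 1.93, 3.603 and 2.34 in the mutant libraries, against 1.25, 1.11 and 1.24 in the sibling libraries, and that of *taf10* to *taf3* was 1.52, 2.81 and 2.18 in the mutant libraries, against 0.815, 0.815 and 0.702 in the sibling libraries. Neither ratio overlapped between the groups. *taf9*, also of both TFIID and SAGA, was at 25.2, 22.6 and 29.4 normalized CPM in the mutant libraries, against 38.5, 33.1 and 41.3 in the sibling libraries. It fell with the block (-0.53, SE 0.16; limma adjusted p = 0.119 without it and 0.0284 with it). *taf1*, the scaffold of TFIID, was at 74.8, 76.9 and 68.4 normalized CPM in the mutant libraries, against 73.5, 73.3 and 70.8 in the sibling libraries, and differed by less than the spread between libraries (0.015, SE 0.13). *taf2* (0.34), *taf4a* (-0.19), *taf5* (-0.21), *taf6* (-0.039), *taf7* (-0.22), *taf11* (-0.26), *taf12* (-0.20) and *taf13* (-0.42) passed in neither fit.

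The SL1 factor, made of TBP and its own TAF proteins, recruits polymerase I to ribosomal DNA. Both SL1-specific TAF genes among the members rose with the block, and *tbp*, described below, did not pass. *taf1a* was at 10.5, 19.9 and 15.2 normalized CPM in the mutant libraries, against 7.02, 7 and 7.84 in the sibling libraries (log2 fold change 0.93, SE 0.22; limma adjusted p = 0.0739 without the block and 0.0134 with it). *taf1b* was at 10.5, 14.1 and 12.3 normalized CPM in the mutant libraries, against 6.56, 6.7 and 7.27 in the sibling libraries (0.75, SE 0.15; limma adjusted p = 0.0506 without the block and 0.0121 with it). The groups did not overlap for either gene, and the ratio of *taf1a* to *taf1b* was 1, 1.42 and 1.24 in the mutant libraries, against 1.07, 1.04 and 1.08 in the sibling libraries, which overlapped. When each library was centred on its median gene *taf1b* passed without the block as well. Of the SAGA-type genes, *taf6l* rose with the block (0.51, limma adjusted p = 0.0464) and *taf5l* did not pass (0.20, SE 0.20). *taf15*, an RNA-binding protein of the FET family, was at 287, 278 and 347 normalized CPM in the mutant libraries, against 361, 358 and 455 in the sibling libraries, and did not pass (-0.36, limma adjusted p = 0.0880 with the block).

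Among 28 Mediator genes fold changes lay between -0.60 and 0.68. By limma without the block 0 passed, against 1.70% of all genes. Before adjustment 2 were higher and 7 lower (p under 0.05), where 10.2% and 10.7% of all genes were. In the blocked fit 2 rose and 2 fell, or 7.14% each, against 6.85% and 6.87% of all genes. The class median was -0.16. The kinase module can detach from Mediator and holds MED12 and MED13. *med13b* was at 90.2, 113 and 86.8 normalized CPM in the mutant libraries, against 58.5, 54.4 and 66.8 in the sibling libraries, and rose with the block (0.68, SE 0.16; limma adjusted p = 0.0760 without it and 0.0258 with it). *med13a* was at 114, 129.6 and 101 normalized CPM in the mutant libraries, against 89.9, 84.5 and 102 in the sibling libraries, overlapped by a small margin and did not pass (0.31, SE 0.15). The ratio of *med13b* to *med13a* was 0.791, 0.869 and 0.859 in the mutant libraries, against 0.651, 0.643 and 0.657 in the sibling libraries. *med12* was at 115, 97.8 and 83.2 normalized CPM in the mutant libraries, against 118, 119 and 112 in the sibling libraries, and did not pass (-0.25, SE 0.16).

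Among the 8 genes of the middle module, which contacts polymerase II and holds the nuclear receptor partner MED1, *med10* rose with the block. It was at 30.97, 40.1 and 38.9 normalized CPM in the mutant libraries, against 25.5, 23.3 and 21.6 in the sibling libraries (0.61, SE 0.15; limma adjusted p = 0.0855 without the block and 0.0310 with it). *med1* was at 50.3, 48.7 and 35.8 normalized CPM in the mutant libraries, against 40.4, 47.3 and 44.9 in the sibling libraries, and its groups overlapped (0.0091, SE 0.17). The other middle genes, *med4*, *med7*, *med19a*, *med19b*, *med21* and *med31*, lay between -0.34 and 0.16. *med14*, the scaffold that joins the modules, was at 93.2, 91.8 and 81.5 normalized CPM in the mutant libraries, against 82.6, 76.2 and 82.7 in the sibling libraries, and did not pass (0.14, SE 0.13).

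In the head module, which binds polymerase II and TFIIB, *med11* fell with the block. It was at 9.69, 6.13 and 9.4 normalized CPM in the mutant libraries, against 13.2, 12.2 and 13.7 in the sibling libraries (-0.60, SE 0.18; limma adjusted p = 0.127 without the block and 0.0298 with it). Its span overlaps another gene, si:ch1073-143l10.2, which was at -0.56, and reads of the pair cannot be told apart without strand. *med17*, the head's central subunit, was at 25.8, 26.9 and 18.1 normalized CPM in the mutant libraries, against 32.96, 34.7 and 28.2 in the sibling libraries, and did not pass (-0.44, limma adjusted p = 0.0597 with the block). *med6*, *med8*, *med18*, *med20* and *med22* lay between -0.017 and 0.30 and passed in neither fit.

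The tail module, where activators bind, had a negative fold change for all 9 of its genes, from -0.48 for *med23* to -0.13 for *med29*. Over all 21769 genes 11063 were negative. Their median was -0.34, with medians of -0.30, -0.36 and -0.40 within same-number pairs 1, 2 and 3. For 8 of the 9 the mutant value was the lower in each of the 3 pairs, against 27.02% of all genes. With the block 1 of the 9 fell, *med25*, or 11.1%, against 6.87% of all genes. *med25* was at 29.1, 21.8 and 28.9 normalized CPM in the mutant libraries, against 38.1, 32.7 and 40.1 in the sibling libraries (-0.47, SE 0.17, limma adjusted p = 0.0447 with the block). *med23* was at 78.7, 61.7 and 67.04 normalized CPM in the mutant libraries, against 97.3, 103 and 89.4 in the sibling libraries, and narrowly did not pass (limma adjusted p = 0.0525 with the block). Assignment of subunits to modules follows mammalian Mediator.

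**Figure D3:**
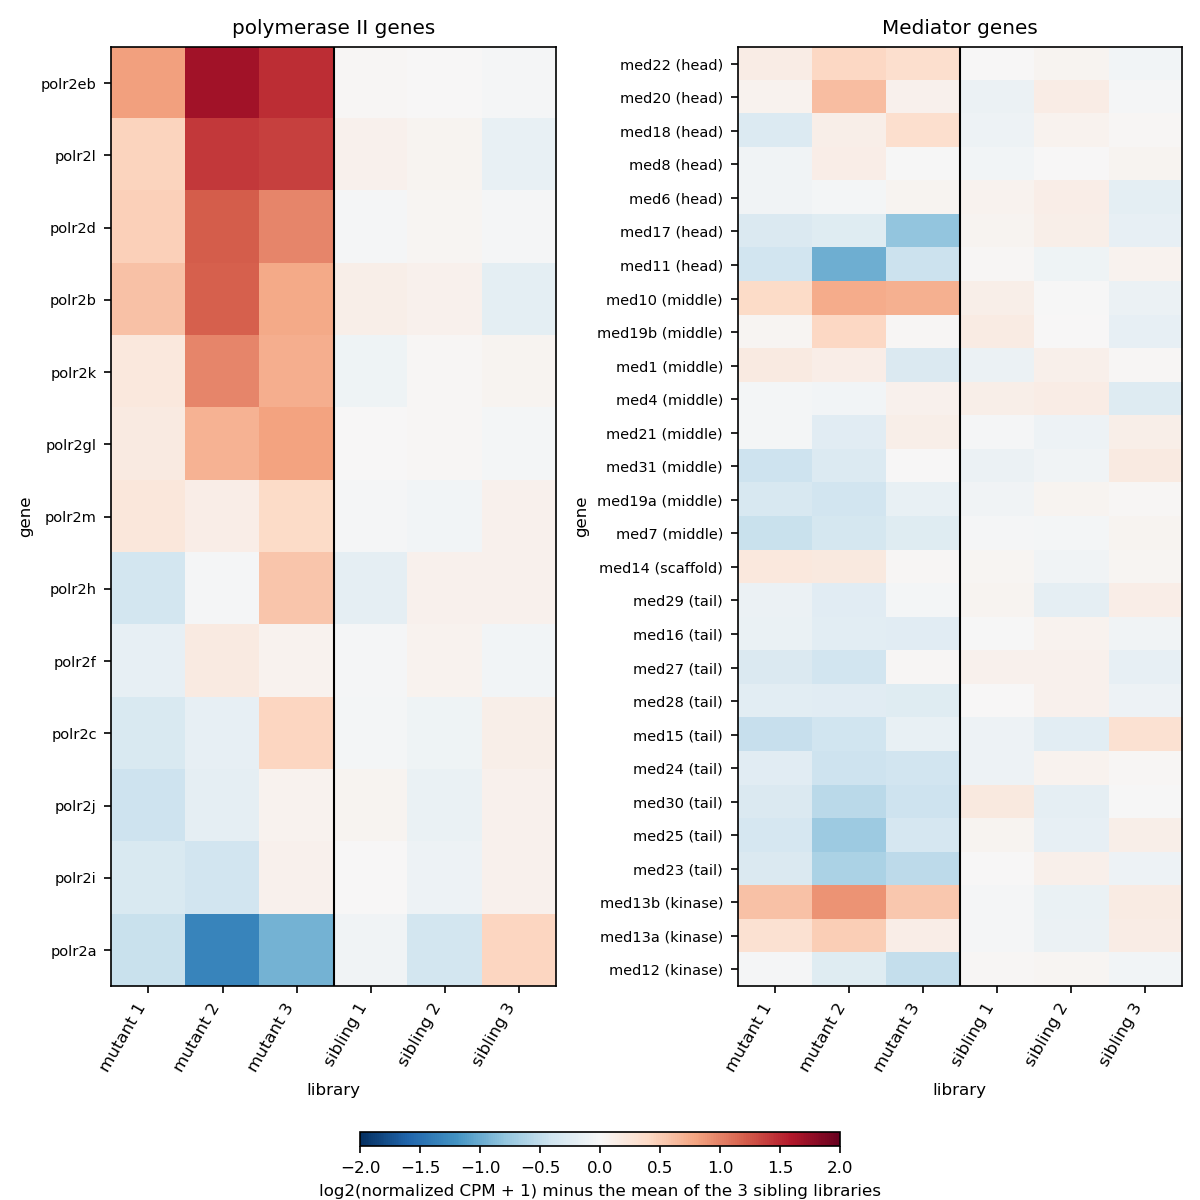
Each cell is log2(normalized CPM + 1) of a gene (rows) in a library (columns) minus the mean of the 3 sibling libraries, for 13 polymerase II genes ordered by fold change and 28 Mediator genes ordered by module. Red is above and blue below the sibling mean. *polr2eb* and *polr2l* are red and *polr2a* is blue in mutant replicates 2 and 3, and the tail module is mostly pale blue in the mutants.

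Partner and paralogous genes were also compared as a ratio within each library, for 13 pairs chosen after the values were seen and so given without a test. The groups did not overlap for 7 of the 13, of which 6 ratios were higher in the mutants and 1, *polr3glb* to *polr3gla*, was lower. In each of these 7 the first gene of the pair did not overlap on its own, so the count largely restates the results of single genes. The share among other pairs of genes was not computed. The catalytic pairs of polymerases I and III had overlapping ratios. The ratio of *polr1b* to *polr1a* was 0.499, 0.579 and 0.4901 in the mutant libraries, against 0.476, 0.508 and 0.517 in the sibling libraries. The ratio of *polr3b* to *polr3a* was 1.41, 1.797 and 1.76 in the mutant libraries, against 1.33, 1.44 and 1.44 in the sibling libraries. For the TFIIF pair, *gtf2f1* to *gtf2f2a*, it was 1.42, 1.18 and 1.41 in the mutant libraries, against 1.32, 0.986 and 1.19 in the sibling libraries.

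**Figure D4:**
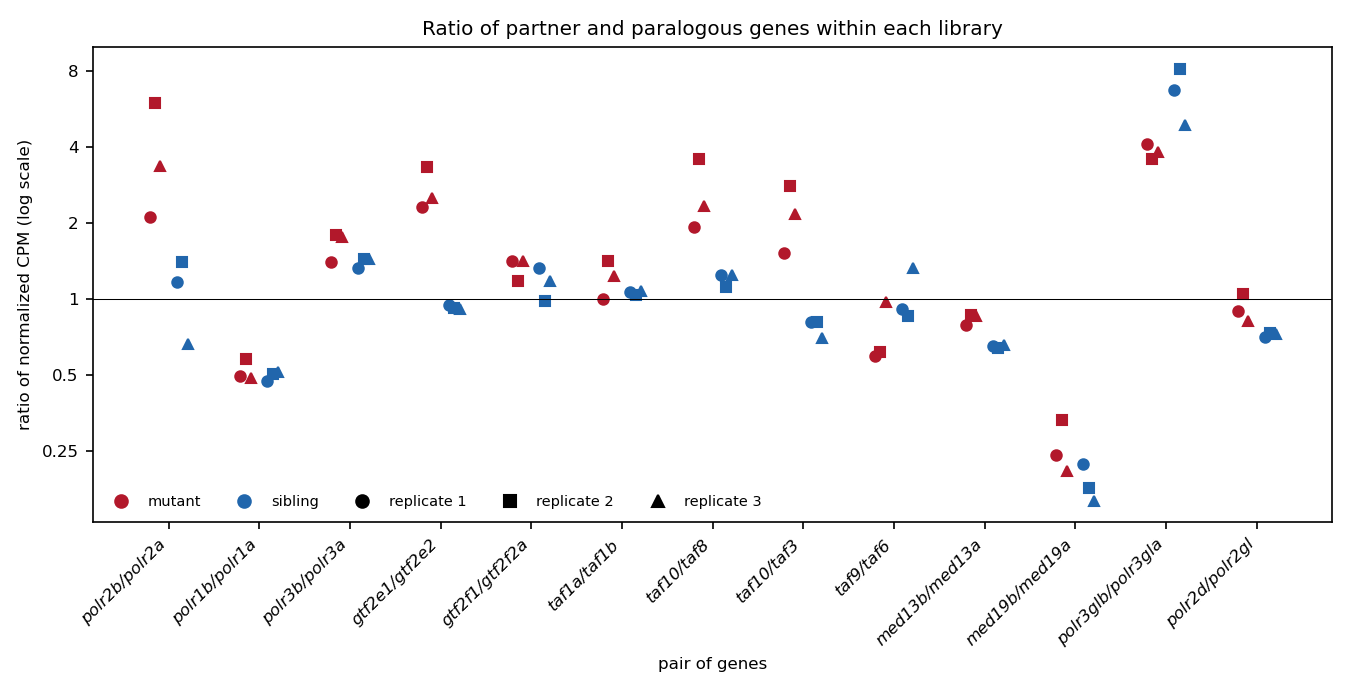
Ratio of normalized CPM of the first to the second gene of each pair (y axis, log scale) in each library, with mutants in red left of siblings in blue and symbols for the replicate number. The *polr2b* to *polr2a* ratio lies at 2.12 to 5.99 in mutants and 0.663 to 1.41 in siblings, while the *polr1b* to *polr1a* ratios overlap.

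Mutant libraries differed in their distance from the siblings. Among the 15 members that rose with the block, mutant replicate 1 was the nearest to the sibling mean for 14, and the median log2 distance was 0.48, 0.98 and 0.80 in mutant replicates 1, 2 and 3. Among the 9 that fell, it was the nearest for 7, with medians of -0.38, -0.76 and -0.59. The same counts over all genes that passed were not computed, so these are not given as a trait of the members. Without mutant replicate 1, 13 members rose and 4 fell, or 17.9% in all, against 3.98% and 3.97% of all genes, or 7.95% in all. Without any other single library 0 members passed with limma, where only 0.142% to 0.675% of all genes did. *gtf2e1*, *polr2eb* and *taf10* each passed in 1 of these 6 fits, and the highest limma adjusted p was 0.0981, 0.142 and 0.187 for the 3. With a pseudocount of 0.1 and no block *gtf2e1* was the only member that passed (limma adjusted p = 0.0447), where 0.942% of all genes passed, 0.873% as rises and 0.0689% as falls, and *polr2eb* (0.0695) and *taf10* (0.0854) did not.

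Factors that work with these complexes but carry other symbols were listed separately, and 74 of 80 symbols were measured. By limma without the block 8 of the 74 rose and 0 fell, or 10.8%, against 1.70% of all genes. Before adjustment 16 were higher and 12 lower (p under 0.05), where 10.2% and 10.7% of all genes were. In the blocked fit 12 rose and 5 fell, or 16.2% and 6.76%, against 6.85% and 6.87% of all genes. At a pseudocount of 0.1 with the block 5 rose and 0 fell, against 0.717% and 0.0597% of all genes. The 5 were *snapc4*, *ice1*, *brf2*, *ccnh* and *ruvbl1*, and every other rise or fall of a related gene was lost there. At that pseudocount without the block *ell* (limma adjusted p = 0.0895) and *gpn2* (0.0615) were lost. Of the 6 fits without 1 library, *ell* and *gpn2* each passed in 1 and *ccnt2a* and *ruvbl1* in 2. *ccnh* passed in 5 of them, and *snapc4*, *ice1* and *brf2* in all 6. The list includes *snapc4*, *ice1* and *brf2*, already known from these data as strong rises, at log2 fold changes of 3.27, 3.28 and 3.12 (limma adjusted p = 0.00313, 0.00313 and 0.00612). It is therefore no independent evidence of a direction.

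Beside the TFIIH core genes, *ccnh*, the cyclin of the TFIIH kinase, was at 27.1, 48.1 and 36.6 normalized CPM in the mutant libraries, against 8.89, 8.81 and 8.62 in the sibling libraries and rose (1.93, SE 0.20, limma adjusted p = 0.00760). Its partners *cdk7* (0.037) and *mnat1* (-0.20) passed in neither fit. *ccnt2a*, a cyclin of the elongation kinase P-TEFb, was at 107, 170.2 and 165 normalized CPM in the mutant libraries, against 49.7, 47.4 and 48.9 in the sibling libraries and rose (1.55, SE 0.19, limma adjusted p = 0.0150). *ell*, an elongation factor gene, was at 49.8, 70.2 and 69.99 normalized CPM in the mutant libraries, against 32.4, 34.7 and 32.7 in the sibling libraries and rose (0.89, SE 0.17, limma adjusted p = 0.0464). *hexim1*, an inhibitor of P-TEFb, was at 63.02, 47.96 and 56.2 normalized CPM in the mutant libraries, against 84.4, 90.1 and 78.5 in the sibling libraries and fell with the block (-0.60, limma adjusted p = 0.0306). *ccnt2a* and *hexim1* are of a list of 27 pausing and elongation genes. By limma without the block 1 of the 27 rose (3.70%) and 0 fell, against 1.41% and 0.285% of all genes. With the block 2 rose and 2 fell, or 7.41% each, against 6.85% and 6.87% of all genes. The others that passed were *ccnt1* (0.68, limma adjusted p = 0.0286) and *tcea2* (-0.58, 0.0239). *cdk9* (0.31) and *ccnt2b* (-0.13) passed in neither fit.

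Of 14 genes for polymerase assembly and for phosphatases of the RPB1 repeat domain, 2 rose and 0 fell by limma without the block. That is 14.3%, against 1.70% of all genes. Before adjustment 3 were higher and 5 lower (p under 0.05), where 10.2% and 10.7% of all genes were. In the blocked fit 3 rose and 3 fell, or 21.4% each, against 6.85% and 6.87% of all genes. *ruvbl1*, an ATPase of the R2TP chaperone, was at 208, 344 and 259 normalized CPM in the mutant libraries, against 88.7, 98.6 and 74.2 in the sibling libraries and rose (1.60, SE 0.21, limma adjusted p = 0.0177). *ruvbl2* (0.10) and *rpap3* (-0.39), of the same 14 genes, passed in neither fit. *gpn2*, a GTPase of polymerase assembly, was at 26.7, 42.8 and 45.9 normalized CPM in the mutant libraries, against 14.5, 13.99 and 14.7 in the sibling libraries and rose (1.32, limma adjusted p = 0.0287). *rpap1*, which encodes a polymerase II-associated protein, was at 17.6, 12.02 and 14.04 normalized CPM in the mutant libraries, against 25.3, 26.4 and 21.6 in the sibling libraries and fell with the block (-0.72, limma adjusted p = 0.0199). *ctdp1*, a phosphatase of the RPB1 repeat domain, fell with the block as well (-0.73, limma adjusted p = 0.0234). *uri1*, a prefoldin-like gene, rose with the block (0.95, limma adjusted p = 0.00658), and *rpap2*, a phosphatase gene, fell with it (-0.50, limma adjusted p = 0.0488). For polymerase I, the initiation factor gene *rrn3* was at 28.99, 50.9 and 31.6 normalized CPM in the mutant libraries, against 20.9, 19.6 and 18.8 in the sibling libraries and rose with the block (0.83, limma adjusted p = 0.0201). Of the 6 related polymerase I genes 2 rose and 0 fell with the block, or 33.3% and 0%, against 6.85% and 6.87% of all genes. The other rise was that of *twistnb* (0.51, SE 0.19; limma adjusted p = 0.184 without the block and 0.0358 with it), whose groups overlapped. *tbp*, whose protein serves all 3 polymerases, was at 30.4, 38.96 and 38.8 normalized CPM in the mutant libraries, against 26.7, 25.3 and 25.4 in the sibling libraries. Its groups did not overlap, and its fold change of 0.46 (SE 0.15) did not pass (limma adjusted p = 0.140, and 0.0617 with the block).

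Markers of head and eye were present in libraries labelled tail or trunk. All 14 head and eye markers were measured, none of them at 0, with a summed level of 451 to 996 normalized CPM in mutants and 842 to 1181 in siblings. The 14 tail and posterior trunk markers summed to 66.7 to 126 in mutants and 78.9 to 133 in siblings. Summed levels of 4 muscle markers were 7395 to 10331 in mutants and 12551 to 15595 in siblings, those of 5 neural markers 447 to 674 in mutants and 781 to 829.7 in siblings, and those of 5 blood markers 1214 to 2557 in mutants and 1815 to 4948 in siblings. Muscle and neural sums did not overlap between the groups. Within same-number pairs 1, 2 and 3 the mutant to sibling ratio of the head and eye sum was 0.843, 0.489 and 0.536, that of the muscle sum 0.710, 0.589 and 0.658, and that of the neural sum 0.813, 0.573 and 0.643. All 3 sums were thus lower in the mutant of every pair. That of the tail and posterior trunk sum was 0.811, 1.16 and 0.946, and that of the blood sum 0.517, 0.444 and 1.17. Neither of these was lower in every pair. The largest values in the head and eye sum were those of the crystallin genes *crybb1* and *crygn2*. Their means over the 6 libraries were 363 and 163 normalized CPM. Of the 14 head and eye markers 12 had a negative and 2 a positive log2 fold change, with a median of -0.31. With the block 5 of 14 head and eye, 3 of 4 muscle, 3 of 5 neural, 2 of 5 blood and 1 of 14 tail markers fell and 0 rose, and by limma without it 1 marker passed, the neural gene *pou3f2b* (-1.11, limma adjusted p = 0.0469). Of all genes 6.87% fell and 6.85% rose with the block, and 0.285% fell without it. With the block and a pseudocount of 0.1 every fall of a marker was lost (lowest limma adjusted p = 0.0559, for *lyz*), where 0.0597% of all genes fell. At that pseudocount without the block *pou3f2b* was lost as well (limma adjusted p = 0.0939). The part of these markers in the changes above was not tested. The smallest value above 0 was 0.03 normalized CPM in replicates 1 and 2 and 0.05 in replicate 3 of both groups. The number of reads per library could not be recovered from the values in replicates 1 and 2, so no counting interval is given.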

How the data were processed

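RNA was profiled in 3 mutant and 3 sibling libraries. Per the file headers the authors deposited a normalized CPM signal per gene, with 2 decimals. Build GRCz11 and the tools STAR, fastp, edgeR and featureCounts appear in the submitters' processing notes. How the factors, strand and gene filter were set is not given in the sources used here, and without strand, reads of overlapping genes cannot be told apart. Low values were whole multiples of 1 read within 0.1 of a read for 100% in replicate 3 of both groups and for 15.0% to 59.2% in the others, where the rounding is too coarse. No count test was therefore run.

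Mutants were compared with siblings on log2(value + 1) by limma's lmFit and eBayes (version 3.58.1, R 4.3.3, default settings), over all 21769 genes without a filter and with Benjamini-Hochberg adjustment at 0.05. The script was tested on simulated data. Groups and replicate numbers come from the sample titles. Over 18506 genes, same-number libraries deviated together from their group means (r = 0.46, 0.45 and 0.59 for replicates 1, 2 and 3), so the numbers were taken to pair the libraries and the fit with the replicate block is given where it changes a call. The labels state no pairing, so it rests on the same values that the blocked fit tests. Of all genes 13.7% passed with the block and 1.70% without it.

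The members, classes and related genes were chosen with earlier results of these data known. Genes named by rule were *dhx38*, members that passed, in each class the 2 with the smallest p and the lowest and highest fold change, 11 genes fixed by name, and related genes that passed. Values of other members are added so that each is accounted for, and those genes were chosen after their values were seen. The values of 1 member are not reported here. All 95 IDs are in the Ensembl name table, which gives 81 the same symbol. Alternatives were a pseudocount of 0.1, a filter at a mean of 1, centring, the block, a variance trend, a threshold of 0.01, replicates 1 and 2 alone and leaving out each library.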

Additional observations from a re-analysis of the deposited data

How the results depend on the processing

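The count test, with and without the block, and DESeq2 were planned and not run, since whole reads could not be recovered. Of 95 members, 3 rose and 0 fell. With a pseudocount of 0.1, 1 rose (1.05% of members, against 0.942% of all genes), with 0 in polymerase II and 0 among TAF genes. With the replicate block 15 rose (6 in polymerase II, 2 in polymerase III, 4 among TAF genes and 2 in Mediator) and 9 fell (1 in polymerase II, 1 in polymerase III, 3 among TFII genes, 1 among TFIII genes, 1 among TAF genes and 2 in Mediator), and 5 related genes fell. Of all genes 6.85% rose and 6.87% fell in that fit. With the replicate block and a pseudocount of 0.1, 0 members rose, 0 in polymerase II, 0 among TFII genes and 0 among TAF genes, and 5 related genes rose in place of 8. Of all genes 0.717% rose in that fit. With a variance trend 5 members rose (2 in polymerase II and 1 in polymerase III), or 5.26%, against 2.21% of all genes. With centring 4 members rose, or 4.21%, against 1.87% of all genes, and 2 TAF genes in place of 1. At a threshold of 0.01, and in replicates 1 and 2 alone (fewer libraries), 0 members rose, 0 in polymerase II, 0 among TFII genes and 0 among TAF genes, and the related genes that rose were 4 at that threshold and 0 in those libraries. Of all genes 0.188% passed at 0.01 and 0 in those libraries.

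Leaving out single libraries gave 0 to 13 members that rose (0 to 6 in polymerase II, 0 to 2 in polymerase III, 0 to 1 among TFII genes, 0 to 3 among TAF genes, 0 to 1 in Mediator) and 0 to 4 that fell (0 to 1 in polymerase II, 0 to 3 among TFII genes). Every value above 0 in these member counts came without mutant replicate 1, where 7.95% of all genes passed, against 0.142% to 0.675% in the other 5 fits. Related genes that rose numbered 3 to 10, and 0 to 4 fell. *dhx38* passed with the block and with a variance trend at 1.03 on the log2 scale and without mutant replicate 1 at 1.12, with 0.79 to 1.17 over the 6 fits. Signs turned in such fits for genes that pass nowhere: *polr1c* (-0.16 to 0.053), *polr3b* (-0.015 to 0.10), *taf1* (-0.020 to 0.064) and *med1* (-0.078 to 0.16). Over the named genes and alternatives, 422 values kept direction and call, 62 lost the call, 26 gained it and 8 turned. The cause was not tested.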

Other observations

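Gene order in RefSeq (assembly GRCz12tu, used for neighbours only) was compared for the members that passed. The nearest protein-coding neighbours of *gtf2e1*, *stxbp5l* and *lcmt2*, had log2 fold changes of -0.17 and 0.64. Those of *taf10*, *cacna1sb* and *efhd2*, were at 0.11 and 0.15, and *arhgap45b*, beside *polr2eb*, was at -0.27. Of these 5 measured neighbours 0 passed (limma), and *lcmt2* passed with the replicate block. The spans of 32 of 95 members overlap another RefSeq gene, among them 8 of the members that passed with the block and 0 of the 3 that passed without it.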
